A study of Mus musculus with 12 samples.

Results

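The aquaporin-4 and perivascular endfoot complex was examined as 9 genes, Aqp4, Dag1, Dtna, Dmd, Sntb1, Mlc1, Hepacam, Agrn and Trpv4. They were chosen by symbol, and all 9 were found among the 56791 gene names of the deposited expression table. The study measured messenger RNA by sequencing in astrocytes of adult naive male mice, sorted from the hippocampus by fluorescence on the astrocyte surface antigen ACSA-2, to ask about the TNF receptor TNFR2 of astrocytes. The group called Ctrl was Tnfrsf1bfl/fl, that is, homozygous for a floxed allele of the gene that encodes TNFR2. The group called cKO was GfapcreERT2:Tnfrsf1bfl/fl and carried in addition a tamoxifen-dependent Cre recombinase driven by the Gfap promoter, so both groups shared the floxed allele. There were 12 libraries from 6 A numbers, A1, A2 and A8 in Ctrl and A4, A9 and A10 in cKO, each of which gave 1 library called S1 and 1 called S2. The labels define neither A nor S and do not say that an A number is 1 animal. For the genotype tests S1 and S2 were averaged, n is 3 per group, and their p-values measure only the spread between A numbers. The S2 against S1 test and the mixed models, both given further below, used the 12 libraries without averaging.

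Astrocytes wrap brain capillaries with processes called endfeet, and the membrane facing the vessel is packed with the water channel aquaporin-4. The channel is held there through syntrophin and dystrobrevin, which bind a short form of dystrophin, which in turn binds dystroglycan. Dystroglycan carries sugar chains that bind agrin and laminins in the basement membrane around the vessel. MLC1 and GlialCAM (encoded by Hepacam) form a second membrane complex at endfoot junctions, known for its loss in megalencephalic leukoencephalopathy with cysts, and TRPV4 is a cation channel opened by swelling.

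The libraries held 17311872 to 35323322 reads, as recovered from the steps between low values, and intervals and floors based on reads cover counting error only. Tnfrsf1b, the targeted gene, was listed at 0 in 9 of the 12 libraries, and its highest value was 0.163 FPKM in A4, labelled cKO. A4 held 10 Tnfrsf1b reads in S1 and 22 in S2, and the part of other cell types in them was not tested. At this level the gene could not check the labels, so cKO below means the libraries labelled cKO. The defining markers of astrocytes were all present. The 10 astrocyte markers, led by Slc1a2 and Glul, summed to 4425 to 5309 FPKM in Ctrl and 5015 to 5760 FPKM in cKO. The 10 oligodendrocyte markers, among them Cldn11, were also present and summed to 1049 to 2273 FPKM in Ctrl and 302 to 720 FPKM in cKO. None of either list was at 0 in every library. For 5 oligodendrocyte precursor markers the sum was 94.2 to 135 FPKM in Ctrl and 53.6 to 77.0 FPKM in cKO. Most of it was Olig1 (mean 69.5 FPKM) and Sox10 (17.0 FPKM). The rest of this list averaged at most 1.98 FPKM each and overlapped between the groups. The part of oligodendrocytes in this sum was not tested. For 8 microglial markers the sum was 15.2 to 19.1 FPKM in Ctrl and 21.2 to 37.7 FPKM in cKO, highest in A4. For 5 erythrocyte markers it was 0.102 to 1.49 FPKM in Ctrl and 1.80 to 2.31 FPKM in cKO. Of these 5, 3 globin genes were listed at 0 in every library, and only Alas2 reached a mean of 1 FPKM. The erythrocyte sum thus rested on very low values and says little about erythrocyte content. Like the oligodendrocyte sums, the precursor, microglial and erythrocyte sums did not overlap between the groups (exact permutation p = 0.1 for each, two-sided, the smallest possible). The other sums overlapped. They were 49.8 to 242 FPKM for 6 ependymal and 72.9 to 150 for 8 mural markers. They were 5.47 to 63.1 FPKM for 10 endothelial, 3.77 to 9.67 for 9 neuronal and 5.30 to 14.6 for 6 perivascular fibroblast markers.

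The endfoot genes spanned a wide range of levels, and none of those tested was called between the genotypes, as was no other gene in the table. FPKM is fragments per kilobase of exonic length per 1000000 assigned fragments, so levels of different genes can be set side by side where the length used fits the transcripts present. For Dmd, whose length covers long and short forms, a level made up of short forms is understated, so its place in the order is that of the deposited FPKM only. Over the 12 libraries the mean was 224 FPKM for Aqp4, 195 for Hepacam, 171 for Mlc1, 58.5 for Dag1, 39.5 for Dtna, 17.4 for Agrn, 17.1 for Dmd, 2.71 for Sntb1 and 0.546 for Trpv4. Aqp4 ranked 93rd, Hepacam 105th and Mlc1 121st among the 56791 names. Each gene was above the next in this order in 6 of 6 A numbers, with 2 exceptions. Aqp4 was above Hepacam in 5 of 6, all but A1. Agrn was above Dmd in 2 of 6, so these neighbours did not differ beyond their spread in deposited FPKM.

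The genotypes were compared with limma on log2(FPKM + 1) over the 17540 genes whose mean FPKM was 1 or more, with p-values adjusted over all of them by the Benjamini-Hochberg method. Of the 9 endfoot genes, 8 passed this filter, all but Trpv4. At an adjusted p under 0.05, 0 of the 8 were called, against 0.00% of all genes tested, and at an unadjusted p under 0.05 the count was also 0 of 8, against 7.69% of all. The 3 cKO values lay wholly on one side of the 3 Ctrl values in 0 of 8, against 13.0% of all genes (5.76% with cKO above and 7.22% with cKO below). The log2 difference (cKO minus Ctrl) was above 0 in 6 of 8, against 49.2% of all genes, and its median was 0.075, against -0.0065. The signs of Dmd, Mlc1 and Hepacam turned with the scaling of the libraries. In bulk samples such as these, fewer cells of a type and less RNA per cell cannot be told apart.

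**Figure D1:**
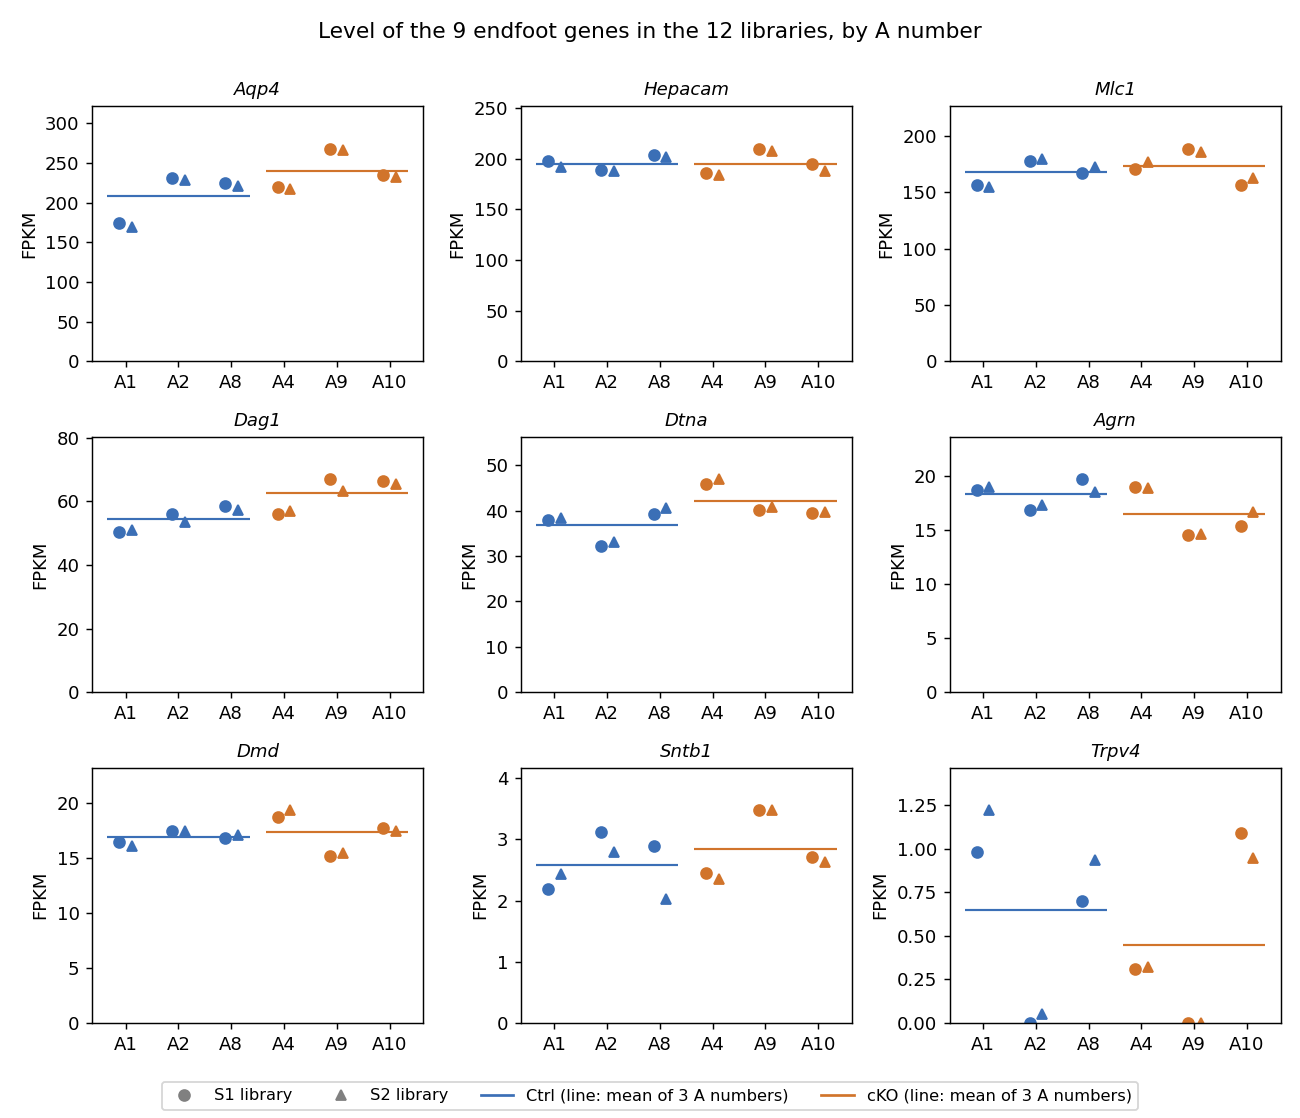
FPKM of each of the 9 endfoot genes (vertical axis, linear from 0) in the S1 (circle) and S2 (triangle) libraries of the 6 A numbers, with Ctrl in blue, cKO in orange and a line at the mean of each group. The groups overlap in every panel, and Trpv4 is at or near 0 in A2 and A9, which belong to different genotypes.

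Aqp4 (ENSMUSG00000024411, chromosome 18, start 15522553, end 15544039, minus strand), which encodes the water channel, was measured on 20647 to 47783 reads per library. Its level was 172 FPKM in A1, 229 in A2 and 222 in A8 of Ctrl, and 218 in A4, 267 in A9 and 233 in A10 of cKO. A1 was the lowest and A9 the highest, and A4 lay below 2 of the 3 Ctrl values. Ctrl had a mean of 208 ± 31.6 FPKM and cKO one of 240 ± 25.1 FPKM (SD, each n = 3; exact permutation p = 0.4, two-sided, where the smallest this design allows is 0.1). The log2 difference was 0.21 (SE 0.15, limma adjusted p = 0.842), with a 95% interval from -0.14 to 0.57, or 0.905-fold to 1.48-fold. The difference was 0.080 without A1 and 0.13 without A9.

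Dag1 (ENSMUSG00000039952, chromosome 9, start 108081833, end 108141157, minus strand) encodes dystroglycan, the receptor that joins the complex to the basement membrane. It stood at 50.8, 54.8 and 57.8 FPKM in A1, A2 and A8, and at 56.6, 65.1 and 65.8 FPKM in A4, A9 and A10. Among the cKO values only A4 lay within the Ctrl range. On the log2 scale cKO minus Ctrl was 0.19 (SE 0.11, limma adjusted p = 0.781), and its 95% interval ran from 0.949-fold to 1.38-fold.

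Dmd (ENSMUSG00000045103, chromosome X, start 81992476, end 84249747, plus strand) encodes dystrophin. Its level was 16.3, 17.4 and 16.9 FPKM in A1, A2 and A8, and 19.0, 15.3 and 17.6 FPKM in A4, A9 and A10. The Ctrl values sat inside the cKO range. This gave a log2 difference of 0.030 (SE 0.13, limma adjusted p = 0.983), with an interval from 0.828-fold to 1.26-fold. Its sign turned when libraries were rescaled to sum to 1000000 (-0.043). The table gives 1 value per gene over 23801 exonic bases, so the long form and the short form made from an internal promoter were not separated, and a level made up of short transcripts is understated by that length.

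To show what a value per gene sums over, the 250 bases before each of the 2 Dmd starts in the RefSeq promoter table (GRCm38.p6) are printed, with those of Dag1 and of Trpv4, a high and a near-absent member. Capitals mark the GC box GGGCGG on either strand. None of these 4 windows overlapped an exon of GENCODE M21.
Dmd first start, chrX:82948620-82948869, plus strand: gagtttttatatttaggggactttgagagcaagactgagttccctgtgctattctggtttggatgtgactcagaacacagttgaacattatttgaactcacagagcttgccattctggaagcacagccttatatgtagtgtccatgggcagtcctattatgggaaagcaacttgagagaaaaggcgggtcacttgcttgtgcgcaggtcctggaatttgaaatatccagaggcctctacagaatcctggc
Dmd internal start, chrX:85048045-85048294, plus strand: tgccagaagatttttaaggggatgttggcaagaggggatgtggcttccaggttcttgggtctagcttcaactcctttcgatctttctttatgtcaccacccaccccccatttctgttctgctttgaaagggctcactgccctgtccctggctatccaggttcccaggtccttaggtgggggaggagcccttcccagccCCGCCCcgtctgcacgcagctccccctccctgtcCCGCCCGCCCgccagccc
Dag1, chr9:108263959-108264208, minus strand: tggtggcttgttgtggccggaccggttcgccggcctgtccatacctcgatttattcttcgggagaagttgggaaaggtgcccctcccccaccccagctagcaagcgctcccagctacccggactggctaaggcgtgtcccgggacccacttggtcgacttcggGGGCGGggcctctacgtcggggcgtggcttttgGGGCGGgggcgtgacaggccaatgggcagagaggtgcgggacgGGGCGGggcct
Trpv4, chr5:114658422-114658671, minus strand: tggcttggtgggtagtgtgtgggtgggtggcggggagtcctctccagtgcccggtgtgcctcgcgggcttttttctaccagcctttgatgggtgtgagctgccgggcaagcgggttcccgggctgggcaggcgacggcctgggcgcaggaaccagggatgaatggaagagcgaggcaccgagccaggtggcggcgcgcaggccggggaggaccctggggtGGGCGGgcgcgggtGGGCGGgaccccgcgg
The first Dmd window held 0 GC boxes and was 45.2% G or C, and the internal one held 3, of which 2 stand in 1 run of capitals, and was 60.0% G or C. Dag1 held 3 and Trpv4 held 2, so both the expressed and the near-absent member held the GC box. Of the windows not printed, those of Agrn held 12 and 2, the second of Dag1 held 3, and those of Hepacam and Mlc1 held 0. Across all 32851 promoters in that table, 32.7% held a GC box in the same 250 bases. Promoter windows of 6 members (Agrn, Dag1, Dmd, Hepacam, Mlc1 and Trpv4), 9 in all, were searched for 4 more motifs on both strands. Aqp4, Dtna and Sntb1 were not searched, so the counts do not cover them. The 2 Dag1 windows overlap in part and are not separate stretches. The NF-kB consensus was in 0 of 9 (7.25% of all promoters), the SOX motif AACAAT in 0 of 9 (9.42%), the NFI motif TTGGCA in 2 of 9 (12.3%), at Hepacam and the internal Dmd start, and the TATA box TATAAA in 1 of 9 (12.4%), at the first Dmd start. A match describes these letters only. The windows of Hepacam and Mlc1 lay wholly within exons annotated in GENCODE M21 and are not printed.

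Dtna (ENSMUSG00000024302, chromosome 18, start 23548192, end 23792772, plus strand) encodes alpha-dystrobrevin, a dystrophin-related partner that binds syntrophins. It stood at 38.1, 32.7 and 39.9 FPKM in A1, A2 and A8, and at 46.4, 40.5 and 39.6 FPKM in A4, A9 and A10. A2 was the lowest and A4 the highest, and the groups overlapped only in that A8 lay above A10. Their log2 difference was 0.19 (SE 0.13, limma adjusted p = 0.829). The 10 oligodendrocyte markers summed to 2088, 2273 and 1049 FPKM in A1, A2 and A8 and to 302, 431 and 720 FPKM in A4, A9 and A10. With their mean as a covariate the Dtna difference was -0.10 (limma adjusted p = 0.938). These sums did not overlap between the groups, so that fit could hardly tell genotype from the markers. With no covariate, the Dtna difference was 0.11 when A2 was left out and 0.12 when A4 was left out. An antisense noncoding gene, Gm47898, shares 90 exonic bases with Dtna (0.532% of its length), and strand use in the counting was not stated.

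Sntb1 (ENSMUSG00000060429, chromosome 15, start 55499784, end 55770345, minus strand), a syntrophin that links partners to dystrophin, was the lowest of the tested members. It rested on 221 to 522 reads per library. Its level was 2.31, 2.96 and 2.46 FPKM in A1, A2 and A8, and 2.40, 3.48 and 2.67 FPKM in A4, A9 and A10. The highest value was A9 and the lowest A1. Its log2 difference was 0.10 (SE 0.21, limma adjusted p = 0.964), and the interval of 0.759-fold to 1.52-fold was the widest among the tested members. The difference was -0.0097 without A9. S1 and S2 of A8 differed by 0.36 on the log2 scale, the largest such gap among the 8 tested members.

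Agrn (ENSMUSG00000041936, chromosome 4, start 156249747, end 156281945, minus strand) encodes agrin, a proteoglycan of the basement membrane that binds dystroglycan. It stood at 18.8, 17.1 and 19.1 FPKM in A1, A2 and A8, and at 19.0, 14.6 and 16.0 FPKM in A4, A9 and A10. A9 and A10 lay below every Ctrl value, while A4 was the second highest of the 6. The log2 difference was -0.15 (SE 0.14, limma adjusted p = 0.889), the lowest of the 8, with an interval from 0.720-fold to 1.13-fold. It was -0.067 without A9 and -0.24 without A4. Agrin is also made by cells of vessels, and the 10 endothelial markers summed to 63.1, 44.0 and 5.47 FPKM in A1, A2 and A8 and to 47.4, 8.10 and 7.01 FPKM in A4, A9 and A10. A8 had the lowest endothelial sum and the highest Agrn level. A9 and A10 had the next lowest endothelial sums and the lowest Agrn levels. The part of these cells in the Agrn values was not tested.

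Mlc1 (ENSMUSG00000035805, chromosome 15, start 88840087, end 88863210, minus strand) encodes the membrane protein MLC1. Its level was 156, 179 and 170 FPKM in A1, A2 and A8, and 174, 187 and 159.9 FPKM in A4, A9 and A10. The groups covered nearly the same range. Their log2 difference was 0.046 (SE 0.11, limma adjusted p = 0.969). It was -0.029 when libraries were rescaled to sum to 1000000, -0.0072 without A1 and -0.010 without A9.

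Hepacam (ENSMUSG00000046240, chromosome 9, start 37278647, end 37297871, plus strand) encodes GlialCAM, the adhesion protein that brings MLC1 to cell junctions. Its level was 195, 188 and 202 FPKM in A1, A2 and A8, and 185, 209 and 191 FPKM in A4, A9 and A10. The highest A number was 1.13 times the lowest, the narrowest span among the members. The difference was -0.0027 on the log2 scale (SE 0.10, limma adjusted p = 0.998), with an interval from 0.846-fold to 1.18-fold, and it was 0.076 under upper quartile scaling. The standard deviation of Hepacam within a genotype was 0.074 on the log2 scale. That was lower than in all but 1.62% of the tested genes, where the median was 0.32, and the median of the 3965 genes at a mean FPKM of at least 10 was 0.21.

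Trpv4 (ENSMUSG00000014158, chromosome 5, start 114760213, end 114796482, minus strand) was present in some A numbers and nearly absent in others of the same genotype. In Ctrl, A1 had 76 and 155 reads in S1 and S2, A2 had 0 and 6, and A8 had 56 and 120. In cKO, A4 had 28 and 46 reads, A9 had 0 and 0, and A10 had 80 and 112. Both libraries of an A number were thus high or low together, and each genotype held an A number at or near 0. The levels were 1.10, 0.0262 and 0.818 FPKM in A1, A2 and A8, and 0.316 and 1.02 FPKM in A4 and A10. A9 had 0 reads, and a floor of 3 reads stands at 0.0422 FPKM in its S1 and 0.0261 FPKM in its S2. Low read numbers were mostly even, so reads were not independent counts and the true limit may be higher. Its mean kept it out of the main test. Without a filter on low values, the log2 difference was -0.19 (limma adjusted p = 0.925), and it ran from -0.49 without A2 to 0.049 without A9 as each A number was left out.

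**Figure D2:**
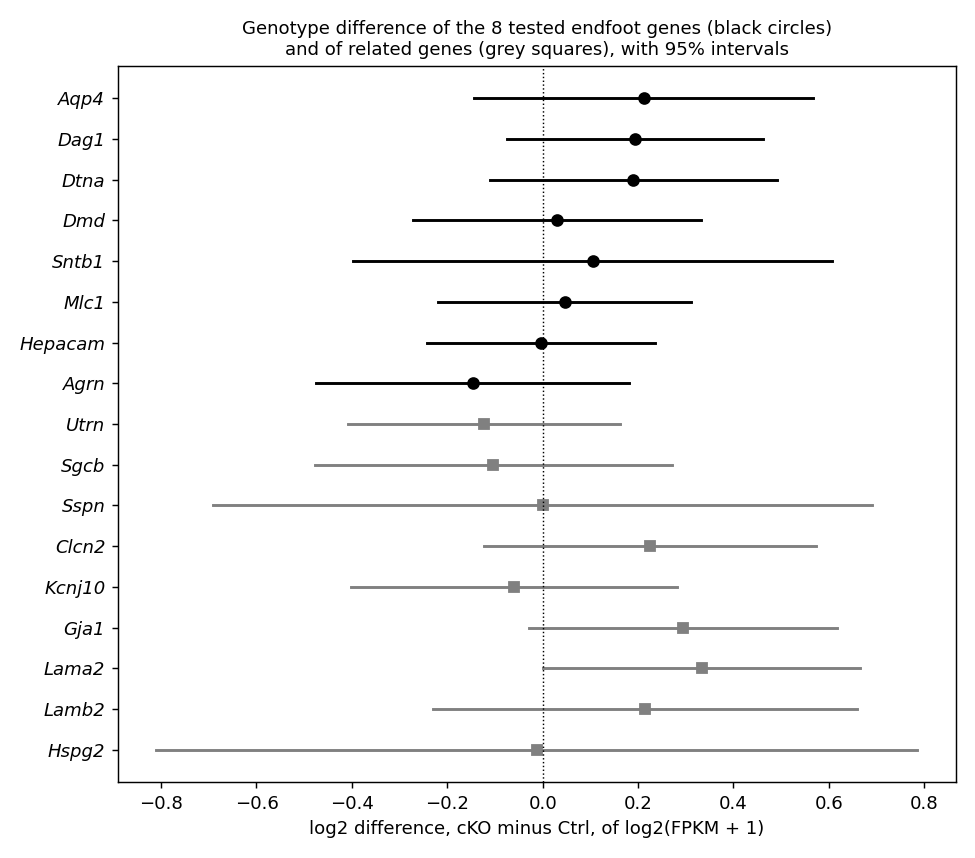
Log2 difference between cKO and Ctrl (horizontal axis, on log2(FPKM + 1)) with its 95% interval from limma, not adjusted for the number of genes, for the 8 tested endfoot genes (black circles) and 9 related genes (grey squares). The 8 endfoot intervals all include 0, and their centres run from -0.15 for Agrn to 0.21 for Aqp4.

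Ratios between genes of one A number do not depend on how a library is scaled, and 10 were computed. Aqp4 was 3.38 to 4.18 times Dag1 in FPKM over the 6 A numbers, and Mlc1 was 0.80 to 0.949 times Hepacam. The Ctrl and cKO ranges overlapped in both (exact permutation p = 0.9 and 0.8, two-sided). Aqp4 was 1.24, 1.29 and 1.24 times Kcnj10, the endfoot potassium channel, in A1, A2 and A8, and 1.55, 1.55 and 1.46 times in A4, A9 and A10. All 3 cKO ratios lay above all 3 Ctrl ratios (exact permutation p = 0.1, the smallest possible, and 0.5 after Benjamini-Hochberg adjustment over the 10). The groups did not overlap in 17.9% of the ratios of Aqp4 to the 3964 other genes at a mean FPKM of at least 10. Utrn, the paralogue of dystrophin, was 0.929, 0.855 and 0.868 times Dmd in Ctrl and 0.781, 0.851 and 0.738 times in cKO, also without overlap (exact permutation p = 0.1, adjusted 0.5), as were 12.9% of the ratios of such genes to Dmd. The other 6 ratios overlapped.

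Levels were also compared relative to each gene's own mean. The likeness to Aqp4 was taken as the root mean square difference from its centred log2 profile over the 6 A numbers, among the 3964 other genes at a mean FPKM of at least 10. Dag1 ranked 56th with a difference of 0.11, Mlc1 160th with 0.13 and Hepacam 549th with 0.18, against a median of 0.28 over all these genes. A gene with no variation at all would score 0.19, and 711 genes scored below that. Hepacam was thus close to the score of a flat gene, and Dag1 and Mlc1 were below it. Dmd ranked 1140th, Dtna 1308th and Agrn 2382nd. Aqp4 was 0.37 below its mean in A1 and 0.27 above it in A9. Dag1 (-0.19 and 0.16) and Mlc1 (-0.13 and 0.14) lay on the same side of their means as Aqp4 in A1 and A9. Agrn lay on the other side in both, at 0.11 and -0.23. The 5 genes most like Aqp4 were Akap7, Snrk, S100a1, Thap2 and Src, with differences of 0.049 to 0.068. These are the closest of 3964 and are given as a description.

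**Figure D3:**
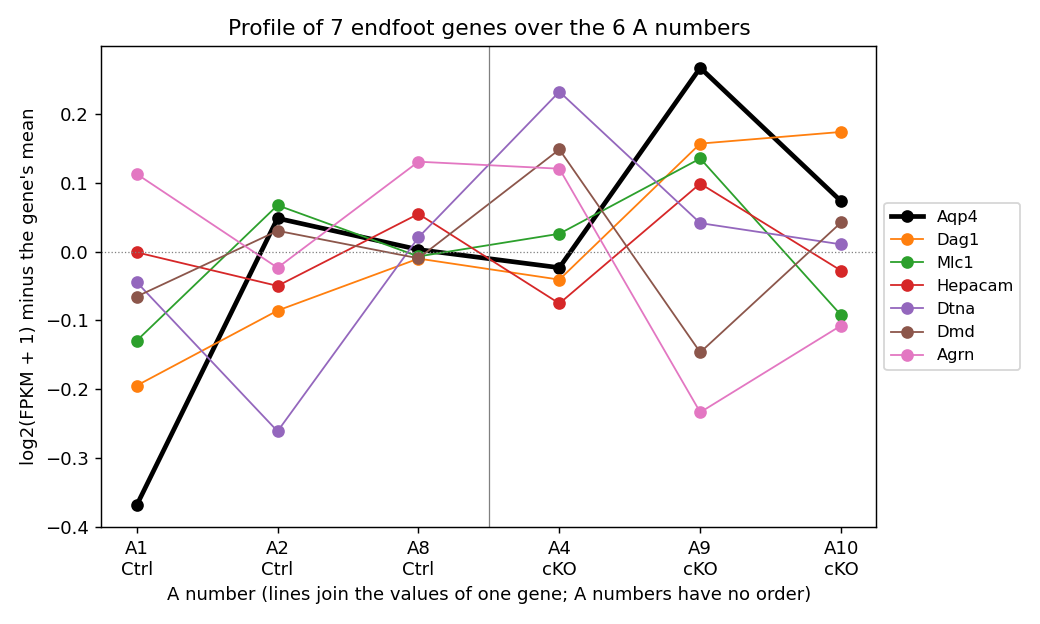
Log2(FPKM + 1) minus the mean of each gene (vertical axis) in the 6 A numbers, Ctrl left and cKO right of the vertical line, for the 7 endfoot genes at a mean FPKM of at least 10. Aqp4 (thick black) is lowest in A1 and highest in A9, and Agrn is lowest in A9.

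Genes that belong to the same structures were taken from fixed lists. Of 14 other genes of the dystrophin-associated complex, 7 were tested, 0 had an adjusted p under 0.05, and 0 an unadjusted p under 0.05. Their median log2 difference was -0.00024. The smallest adjusted p in this list was 0.813 for Sntb2, another syntrophin, at 0.921, 1.46 and 0.425 FPKM in A1, A2 and A8 and 1.64, 1.65 and 1.79 FPKM in A4, A9 and A10. The cKO values of Sntb2 lay above the Ctrl values, as in 5.76% of all genes tested. Utrn had means of 14.9 ± 0.201 FPKM for Ctrl and 13.6 ± 1.07 FPKM for cKO (limma adjusted p = 0.892). Sgcb and Sspn, a sarcoglycan and sarcospan, had means of 14.5 and 4.11 FPKM for Ctrl, against 13.3 and 4.14 FPKM for cKO. Sgcd, another sarcoglycan, stayed under the filter, with means of 0.0843 and 0.221 FPKM, and Sgcz was listed at 0 in every library.

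Of 17 enzymes that build the sugar chains of dystroglycan, 16 were tested, and 0 had an adjusted p under 0.05. At an unadjusted p under 0.05, 0 were higher and 1 was lower in cKO, against 2.98% and 4.71% of all genes. That gene was Dpm3, a subunit of the enzyme that makes dolichol-phosphate mannose, with means of 3.81 ± 0.685 FPKM for Ctrl and 1.90 ± 0.522 FPKM for cKO (SD, each n = 3; log2 difference -0.73, SE 0.23, limma adjusted p = 0.50). The groups did not overlap in that gene, as in 7.22% of all genes tested with cKO below Ctrl. The median of the list was -0.0026.

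Of 15 basement membrane genes and other dystroglycan ligands, 13 were tested and 0 passed. Lama2, a laminin chain that dystroglycan binds, was the only one of them at an unadjusted p under 0.05. It stood at 13.1, 12.2 and 15.3 FPKM in A1, A2 and A8 and at 18.9, 16.9 and 15.8 FPKM in A4, A9 and A10 (log2 difference 0.33, SE 0.14, limma adjusted p = 0.648). The groups did not overlap, as in 5.76% of all genes with cKO above Ctrl. Lamb2 averaged 15.2 ± 3.80 and 17.5 ± 1.53 FPKM, and Hspg2, which encodes perlecan, 2.64 ± 1.10 and 2.58 ± 0.932 FPKM. The median of the list was 0.053.

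Of 14 partners of MLC1 and GlialCAM and volume-regulated anion channel subunits, 13 were tested and 0 passed. The median was 0.12, with 2 genes lower in cKO at an unadjusted p under 0.05 and 0 higher, against 4.71% and 2.98% of all genes. Slc12a2, a sodium, potassium and chloride cotransporter, stood at 39.3, 37.7 and 21.2 FPKM in A1, A2 and A8, and at 9.57, 13.1 and 21.0 FPKM in A4, A9 and A10 (log2 difference -1.13, SE 0.33, limma adjusted p = 0.451). The order of these values followed that of the oligodendrocyte sums given above except that A1 stood above A2, and the part of those cells was not tested. Lrrc8b, an anion channel subunit, stood at 18.4, 14.3 and 6.38 FPKM in Ctrl and 5.61, 5.30 and 7.76 FPKM in cKO (limma adjusted p = 0.644). Clcn2, the chloride channel that GlialCAM binds, averaged 9.34 ± 0.934 and 11.1 ± 1.18 FPKM in Ctrl and cKO (limma adjusted p = 0.824). Kcnj10 averaged 165 ± 23.3 and 158 ± 15.5 FPKM (limma adjusted p = 0.969). Gja1, the gap junction protein connexin 43, averaged 262 ± 27.3 and 322 ± 41.0 FPKM (limma adjusted p = 0.693). Its groups did not overlap, as in 5.76% of all genes tested with cKO above Ctrl.

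**Figure D4:**
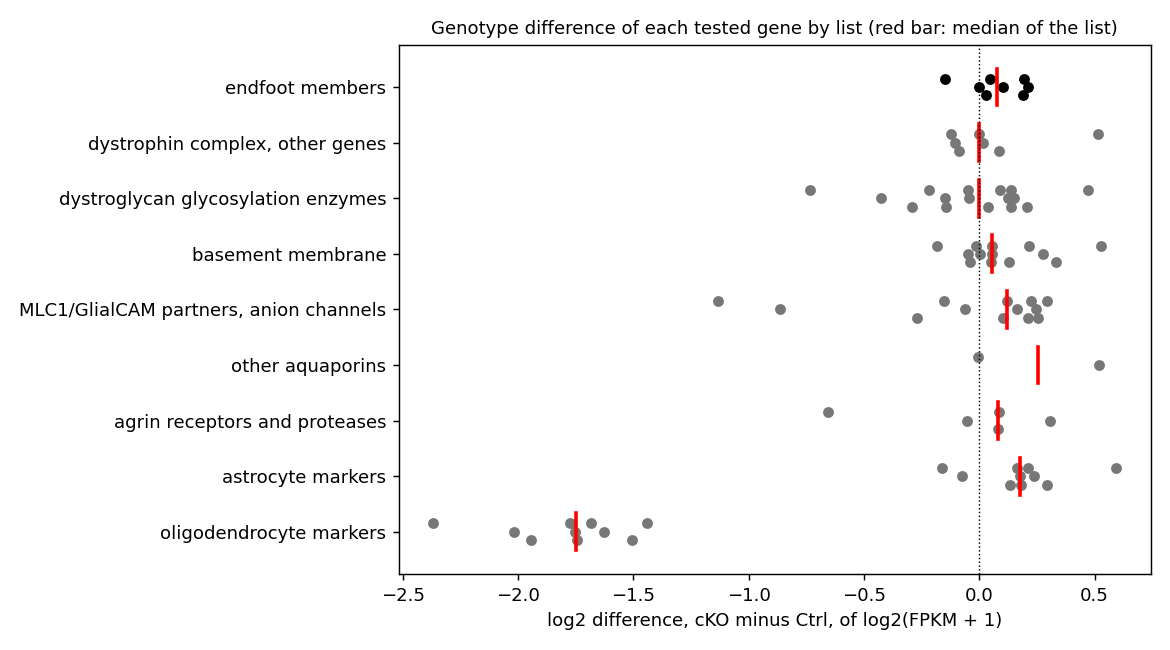
Log2 difference between cKO and Ctrl (horizontal axis, on log2(FPKM + 1)) of each tested gene, by list, with the median of the list as a red bar. The endfoot genes (black, top) lie between -0.15 and 0.21, and the oligodendrocyte markers (bottom) between -2.37 and -1.44.

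Of 10 other aquaporin genes on the list, 2 reached the filter, both far below Aqp4. Aqp9, an aquaglyceroporin, stood at 1.71, 1.84 and 2.36 FPKM in A1, A2 and A8 and at 3.72, 3.61 and 2.50 FPKM in A4, A9 and A10 (log2 difference 0.52, SE 0.23, limma adjusted p = 0.665). Its groups did not overlap either, as in 5.76% of all genes tested with cKO above Ctrl. Aqp11 averaged 1.59 ± 0.452 and 1.55 ± 0.0935 FPKM (limma adjusted p = 0.998). Aqp3, Aqp8 and Aqp12 were listed at 0 in every library. Of 5 other TRPV channel genes, 0 reached the filter. Of 8 agrin receptors and matrix proteases, 5 were tested, 0 passed, and the median was 0.082. The smallest adjusted p there was 0.781 for Itga6, a laminin-binding integrin chain, with means of 20.8 ± 5.06 FPKM for Ctrl and 25.5 ± 1.24 FPKM for cKO. Musk, the agrin-responsive receptor kinase of muscle, averaged 9.59 ± 5.47 and 5.69 ± 3.46 FPKM (limma adjusted p = 0.888).

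A limma fit over all 12 libraries, blocked by A number, set S2 against S1. Among the 8 tested endfoot genes, 0 had a limma adjusted p under 0.05, against 1.39% of all genes, and 2 an unadjusted p under 0.05, against 11.0% of all. Those were Aqp4 (-0.020) and Hepacam (-0.024), and over the 8 the log2 difference (S2 minus S1) ran from -0.075 for Sntb1 to 0.026 for Dtna. Under upper quartile scaling Aqp4 (-0.056, limma adjusted p = 0.0279) and Hepacam (-0.060, limma adjusted p = 0.0254) passed, as lower in S2.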

How the data were processed

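Per the submitters' processing notes, FastQC, STAR and featureCounts were among the tools used, with no versions or roles, and mm10 and GRCm38 were named as builds. Of 51948 genes matched to GENCODE M21 (GRCm38), only 2.70% had the same coordinates as in the deposited table, and of the 9 members 0, so gene coordinates are given as deposited, without a build. The deposited values are FPKM, which the authors scaled so that FPKM times length in kilobases sums to 1000000 per library. Rows sharing a symbol (147 symbols) were summed. Reads were recovered from the steps between low values, with 82.8% to 86.3% of values whole within 0.02 of a read. Among low whole values, 72.6% to 80.4% per library were even, so recovered reads often came in pairs. They are not independent counts, and floors based on them may be too low.

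S1 and S2 were averaged as log2(FPKM + 1), and as FPKM for printed levels. The genotype test used limma (version 3.58.1, under R 4.3.3), using its eBayes step with trend, as a two-sided test at a threshold of 0.05, after a check on simulated data. Single values were compared with two-sided exact permutation tests (scipy 1.17.1, Python 3.11.15). The fold scale understates the change of low genes. Promoter sequences came from RefSeq (GRCm38.p6), where windows of 6 members were searched and those of 3 printed.

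Named were the members, Tnfrsf1b, 11 related genes, in each pathway list the 2 tested genes with the smallest unadjusted p, the 2 highest markers of a marker list beside a result, and the 5 genes most like Aqp4 without Gm or Rik names. Some genes that this rule names are not reported here. The members and lists were chosen with earlier results of these data known. The 10 ratios and the promoter motifs were chosen with the data in hand. No paired design links Ctrl to cKO.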

Additional observations from a re-analysis of the deposited data

How the results depend on the processing

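The genotype test called 0 of 17540 genes (1349 at an unadjusted p under 0.05), and 0 under the other pseudocounts, filters, scalings, eBayes settings, averaging and symbol handling, single S numbers, covariate, centring and voom on recovered reads. Leaving out each A number gave 0 to 1; the 1 was Gm25235, without A1 (limma adjusted p = 0.0342). Mixed models of all 12 libraries, in which A number was a random effect, called 112 genes, and 80 with the replicate block added. Each used 1 correlation between S1 and S2 for all genes (0.915, and 0.924 with that block). Genotype differed only between the 6 A numbers, so the p-values of these models can be too small. Their counts are not evidence that the averaged test missed genes. The replicate number only tells S1 from S2, so it gives no pairing between Ctrl and cKO samples. None of the 8 tested endfoot genes was called in any of these fits (lowest limma adjusted p 0.411, for Dag1). The S2 against S1 test called 243 genes, 22 without the A number block, and 152 to 180 with each A number left out (152 without A1 or A10, 161 without A9). Upper quartile scaling called 256, with 154 higher and 102 lower in S2, against 198 and 45 on the deposited scale.

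Aqp4, Dag1 and Agrn kept the sign of their genotype difference in all 24 alternatives, over ranges of 0.050 to 0.29, 0.032 to 0.27 and -0.34 to -0.067. Centring on astrocyte markers, which put the median of all genes at -0.17, turned Dmd (-0.13), Sntb1 (-0.057) and Mlc1 (-0.12). The oligodendrocyte covariate turned Dtna (-0.10), Dmd (-0.0023) and Mlc1 (-0.067). The sums of those markers did not overlap between the groups, so that fit could hardly tell genotype from the markers. Rescaling to 1000000 turned Dmd (-0.043) and Mlc1 (-0.029). Hepacam turned under upper quartile (0.076) and median of ratios scaling (0.025) and in S1 alone (0.00053). With each A number left out, Aqp4 ran from 0.080 to 0.29, Dag1 from 0.14 to 0.26, Dtna from 0.11 to 0.25, Agrn from -0.24 to -0.067, Trpv4 from -0.49 to 0.049, Dmd from -0.037 to 0.11, Sntb1 from -0.0097 to 0.19, Mlc1 from -0.010 to 0.10 and Hepacam from -0.053 to 0.034. In S2 against S1, upper quartile scaling turned Dtna (-0.0094), Dmd (-0.026), Mlc1 (-0.016) and Agrn (-0.020), and Agrn ran from -0.0034 to 0.035 with each A number left out. The cause was not tested. Counting precision is lowest for Trpv4, with at most 155 reads per library, and Sntb1, with at most 522. The Trpv4 gap between A numbers was seen at similar depth, with 0 reads of 28210890 in A9 S2 and 112 of 29100247 in A10 S2.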

Other observations

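Among the 5 other TRPV channel genes, which all stayed under the filter of the genotype test, Trpv3 and Trpv6 were lower in every A number labelled cKO than in every Ctrl A number. These genes were chosen after their values were seen. Trpv3 stood at 0.512, 1.36 and 1.51 FPKM in A1, A2 and A8, and at 0.379 and 0.478 FPKM in A4 and A10, and was listed at 0 in A9. Trpv6 stood at 0.804, 0.651 and 0.521 FPKM in A1, A2 and A8, and at 0.153, 0.00901 and 0.120 FPKM in A4, A9 and A10. For each gene the exact permutation p was 0.1 (two-sided, n = 3 each), the smallest this design allows. Among the genes that were tested, 7.22% had cKO wholly below Ctrl, and 13.0% did not overlap in either direction. Those genes had a mean FPKM of 1 or more, so these shares do not cover genes as low as Trpv3 and Trpv6. Trpv1 and Trpv5 were listed at 0 in every library.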
